A study of Mus musculus with 282 samples.

Results

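Urea cycle and glutamine genes were followed through mouse liver as 9 genes chosen by symbol: Cps1, Otc, Ass1, Asl, Arg1, Nags, Slc25a15, Gls2 and Glul. All 9 were present among the 15907 gene symbols of both deposited tables, and all 9 passed the filter on low values (a mean of at least 1 RPM). The data were 282 QuantSeq 3' mRNA libraries from livers of male C57BL/6J mice in 16 arms, sampled by zeitgeber time (ZT, hours after lights on). The first table held 13 arms of 18 libraries (ZT 2, 6, 10, 14, 18 and 22, 3 biological replicates each), and the second held 3 tunicamycin arms of 16 libraries (ZT 4, 10, 16 and 22, 4 replicates each). Levels are in RPM, reads scaled to a common library size by TMM.

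The wild-type (WT) uninjected arms were fed at night only, ad libitum or arrhythmically. Night-fed mice also made up the vehicle and rapamycin arms of WT and of whole-body Bmal1 knockouts (BMKO), an uninjected BMKO arm, and 3 liver arms: Albumin-Cre control mice and knockouts of Tsc1 (TSKO) or Raptor (RPKO) restricted to liver. Albumin-Cre acts mainly in hepatocytes, so other liver cells may keep the gene. Arrhythmically fed WT mice received the mTOR kinase inhibitor AZD8055 at dawn or at dusk, and their control arm was not injected, so drug and injection cannot be told apart in those comparisons. The second table held tunicamycin with night feeding, tunicamycin with arrhythmic feeding, and tunicamycin with arrhythmic feeding and AZD8055 at dusk. It was scaled separately, and levels were never tested between the tables.

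Libraries of the first table held between 0.706 M and 14.3 M reads, and those of the tunicamycin table between 4.85 M and 10.1 M. Bmal1 reads (listed as Arntl) ran from 5.80 to 16 RPM in uninjected BMKO liver and from 0.178 to 26.8 RPM in uninjected night-fed WT liver, so 3' reads remained in every uninjected knockout library. Tsc1 was 3.68 to 11.3 RPM in TSKO against 9.46 to 22.7 RPM in Albumin-Cre liver, and Rptor was 2.67 to 9.47 RPM in RPKO against 6.79 to 11.8 RPM. A 3' tag outside a deleted exon does not check a knockout, and which exons were deleted is not stated in the labels. Hepatocyte markers dominated all arms, with a summed level of 6 markers between 26165 and 116934 RPM. No listed marker of another cell type was at 0 in all libraries of an arm. Bulk RNA cannot tell fewer cells of a type from less RNA per cell.

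The urea cycle turns ammonia from amino acid breakdown into urea. In the mitochondrion Nags makes N-acetylglutamate, the activator that Cps1 needs to build carbamoyl phosphate, Otc joins this to ornithine, and Slc25a15 carries ornithine in and citrulline out. In the cytosol Ass1 and Asl convert citrulline to arginine, and Arg1 splits arginine into urea and ornithine. Periportal hepatocytes carry most of the cycle together with Gls2, which releases ammonia from glutamine, while a thin layer of hepatocytes around the central vein expresses Glul, which captures ammonia as glutamine. The genes are known to respond to feeding, glucagon and glucocorticoids. In the GRCm38 annotation the cycle genes are protein-coding, with Cps1 at chr1:67123026-67231259, Otc at chrX:10252305-10321024, Ass1 at chr2:31470207-31520672, Asl at chr5:130011258-130029247 and Arg1 at chr10:24915221-24927484. The remaining genes are Nags at chr11:102145513-102149477, Slc25a15 at chr8:22375551-22398597, Gls2 at chr10:128194457-128210004 and Glul at chr1:153899944-153909723.

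Upstream sequence was taken from RefSeq promoter windows (GRCm38.p6), which matched 5 of the 9 genes: Otc, Ass1, Nags, Slc25a15 (a pair of start sites) and Glul. Each window was cut to the 250 bases before the start. The windows of Otc and Nags are shown because Otc was called in more daily mean comparisons than any member but Arg1 and Nags was called in uninjected BMKO liver. For Ass1 and Slc25a15 only the 30 bases around an E-box are shown, since BMAL1 is known to bind such letters. Both genes differed in uninjected BMKO liver, and with vehicle Slc25a15 did but Ass1 did not. Otc, Nags and Glul, whose windows hold no E-box, also differed in uninjected BMKO liver, where 72.9% of all genes were called. A link between the E-box and these differences was not tested. Capitals mark motif letters, all sequences run 5′ to 3′, and start sites lie just after the last base of the 250-base windows.
Otc, chrX:10252055-10252304, plus strand: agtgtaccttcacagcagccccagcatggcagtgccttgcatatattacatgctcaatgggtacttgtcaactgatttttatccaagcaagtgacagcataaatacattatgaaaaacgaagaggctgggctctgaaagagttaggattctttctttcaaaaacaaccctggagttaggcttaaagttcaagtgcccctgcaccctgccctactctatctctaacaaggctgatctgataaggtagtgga
Nags, chr11:102145263-102145512, plus strand: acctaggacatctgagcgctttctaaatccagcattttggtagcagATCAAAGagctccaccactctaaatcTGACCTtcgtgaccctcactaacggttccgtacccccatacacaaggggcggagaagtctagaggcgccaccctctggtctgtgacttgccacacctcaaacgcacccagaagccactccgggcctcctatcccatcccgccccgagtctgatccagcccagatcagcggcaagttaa
Ass1, chr2:31470222-31470251, plus strand: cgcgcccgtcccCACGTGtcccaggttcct
Slc25a15, chr8:22398337-22398366, minus strand: cgccctgccgcaCACGTGccgcggctccgg

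Searched on both strands were an E-box (CACGTG), a D-box (TTATGTAA), the letters AGGTCA and the DR1 repeat of them. Also searched were a cAMP response element (TGACGTCA), its core (TGACG) and a glucocorticoid response element. The others were a C/EBP palindrome (TTGCGCAA), a C/EBP-ATF element (TGATGNAAT) and a TCF/LEF site (CTTTGAT). The letters AGGTCA are only part of a ROR element, and a whole ROR element was not searched for. These letters also lie within DR1, and TGACG lies within the cAMP response element. The E-box lay 36 to 31 bases before the RefSeq start of Ass1 and 77 to 72 bases before one RefSeq start of Slc25a15. It occurs in 6.02% of 32851 windows of that length. Both E-boxes lie inside the gene spans given above, which begin further upstream, at chr2:31470207 for Ass1 and chr8:22398597 for Slc25a15. Their place relative to the start therefore depends on the start site taken. The letters AGGTCA were found in Nags, 178 to 173 bases before the start on the minus strand, and in Glul. They occur in 14% of windows. The TCF/LEF letters in Nags are held by 3.21% of windows. None of the 10 motifs was found in the Otc window or in the other Slc25a15 window. Of the motifs with no match among the members, the cAMP response element is in 1.55% of windows, its core in 17.8%, the D-box in 0.819%, the glucocorticoid response element in 0.00913%, the C/EBP palindrome in 0.164%, the C/EBP-ATF element in 0.816% and DR1 in 0.0335%. A match is a description of letters, not of binding.

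Asl, the lyase that releases arginine, carried the most regular daily rhythm of the 9 genes. A rhythm was the joint limma test of 24 h cosine and sine contrasts within an arm, called at a Benjamini-Hochberg adjusted p under 0.05 over all genes, and amplitude is the mean-to-peak log2 value. Asl was called in 10 of 16 arms, with peaks from ZT 15.7 to ZT 18.8. In Albumin-Cre liver the 3 libraries at ZT 6 read 83.4, 85.8 and 85.3 RPM and those at ZT 18 read 145.5, 145.5 and 136.8 RPM, with a clear gap between these times. The amplitude there was 0.39 ± 0.05 (SE, n = 18; limma adjusted p = 4.3e-05).

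In night-fed WT liver Asl was 55.9, 72.1 and 77.5 RPM at ZT 6 and 149.8, 113.0 and 263.4 RPM at ZT 14. The times did not overlap, but the spread at ZT 14 was wide, and at ZT 22 a single library stood at 289.4 RPM beside 108.0 and 109.3 RPM. The amplitude was 0.51 ± 0.14 (limma adjusted p = 0.036), a call lost on leaving out any 1 replicate number (adjusted p up to 0.13). The highest Asl amplitude of any arm was 0.72 ± 0.12, with AZD8055 at dusk (limma adjusted p = 0.0017), and the lowest was 0.20 ± 0.08, in TSKO liver, where the test was not passed (adjusted p = 0.16).

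Asl was also called with vehicle in WT, with arrhythmic feeding, with ad libitum feeding, in RPKO liver and in all 3 tunicamycin arms. It was not called in TSKO liver, in the 3 BMKO arms, in WT with rapamycin or with AZD8055 at dawn. The amplitudes of these arms were 0.28 ± 0.12 in uninjected BMKO, 0.29 ± 0.08 in vehicle BMKO and 0.24 ± 0.13 in rapamycin BMKO liver. In WT with rapamycin the amplitude was 0.60 ± 0.17 (adjusted p = 0.098), larger than in several called arms. No test found a rhythm difference of Asl between BMKO and WT or between rapamycin and vehicle, so a missing call there is not a shown loss.

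**Figure D1:**
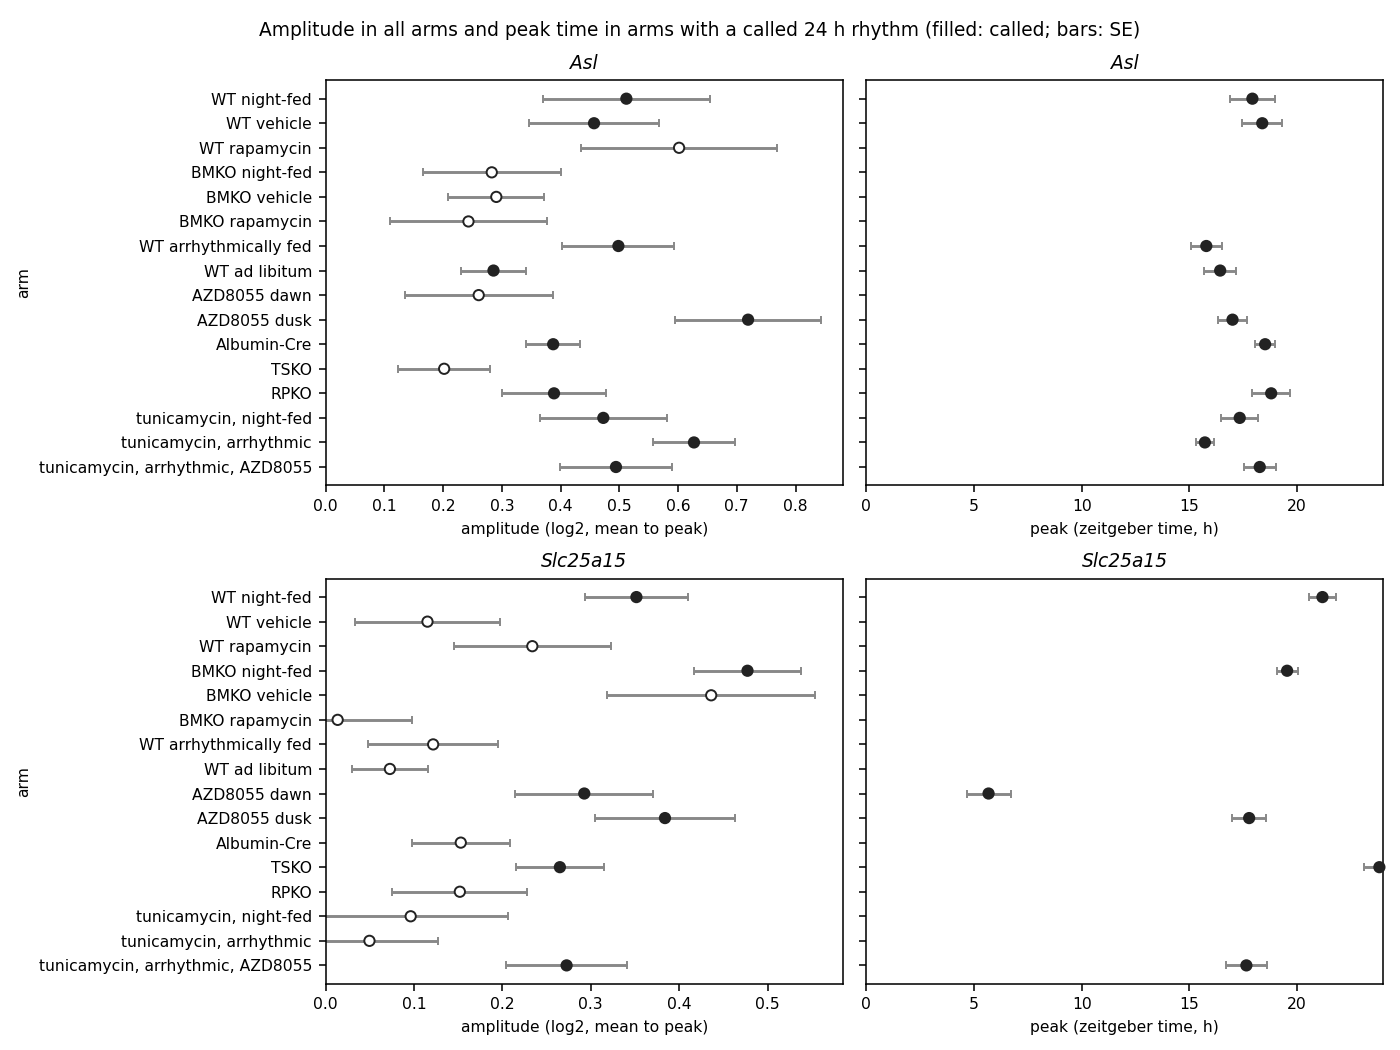
Amplitude (log2, mean to peak, left) and peak time (zeitgeber hours, right) of Asl and Slc25a15 in each arm, with standard errors as bars. Filled points are arms with a called rhythm and peaks are drawn for those only: Asl peaked between ZT 15.7 and ZT 18.8 in 10 arms, while the 6 called Slc25a15 peaks ran from ZT 5.68 to ZT 23.8.

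Slc25a15, the ornithine carrier, was rhythmic in 6 arms, at times of day that differed widely. In night-fed WT liver its 3 libraries at ZT 10 read 255.8, 251.0 and 248.3 RPM and those at ZT 22 read 366.5, 382.6 and 463.2 RPM, with no overlap. Its amplitude was 0.35 ± 0.06, peaking at ZT 21.2 (limma adjusted p = 7.0e-04). In uninjected BMKO liver the amplitude was 0.48 ± 0.06 and the peak ZT 19.54 (limma adjusted p = 3.1e-04), a call lost without replicate 2 (adjusted p = 0.15).

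The remaining members were rhythmic in few arms. Nags was called in night-fed WT (peak ZT 20.4) and TSKO liver (ZT 21.9), Cps1 in TSKO liver (ZT 23.3) and with tunicamycin under arrhythmic feeding (ZT 16.5), and Arg1 under arrhythmic feeding without (ZT 13.9) and with tunicamycin (ZT 15). Otc and Gls2 were each called with AZD8055 at dusk (ZT 11.7 and ZT 13.2), and Glul with tunicamycin under night feeding (ZT 10.05). Ass1 was called in none of the 16 arms by limma, with an unadjusted p under 0.05 in 3 of them.

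In all, 25 of 144 gene and arm combinations were rhythmic by limma. The share of all tested genes called rhythmic in the same arm was 21.8% in night-fed WT (3 of 9 members called), 15.4% with vehicle (1 of 9), 5.1% with rapamycin (0 of 9), 5.79% in uninjected BMKO (1 of 9), 5.61% in vehicle BMKO (0 of 9) and 0.266% in rapamycin BMKO liver (0 of 9). It was 7.83% under arrhythmic feeding (2 of 9), 16.4% ad libitum (1 of 9), 21.4% with AZD8055 at dawn (1 of 9), 19.8% at dusk (4 of 9), 23.2% in Albumin-Cre (1 of 9), 24.1% in TSKO (3 of 9) and 17.2% in RPKO liver (1 of 9). With tunicamycin it was 15.1% under night feeding (2 of 9), 7.42% under arrhythmic feeding (3 of 9) and 21.3% with AZD8055 (2 of 9). In the 3 arms with 0 members called by limma, 2, 3 and 1 members had an unadjusted p under 0.05 (WT rapamycin, BMKO vehicle, BMKO rapamycin), and edgeR on the recovered reads called 0 in each. Leaving out replicate 3 of every group brought the 25 calls to 11. Calls that held under every alternative run were 5: Slc25a15 in night-fed WT, and Asl in Albumin-Cre liver, with AZD8055 at dusk, and with tunicamycin under arrhythmic feeding without and with AZD8055.

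The daily mean differed for 6 of the 9 genes under arrhythmic and 4 under ad libitum feeding, both compared with the same night-fed WT arm. Neither schedule was tested against another night-fed arm. The direction was not shared along the cycle: Cps1 fell in both, while Otc, Ass1 and Arg1 rose in both. Of all tested genes 44.1% were called under arrhythmic and 52.6% under ad libitum feeding, so the members' counts were not far from the background. Differences are log2 differences of daily means over 6 times, with Benjamini-Hochberg adjustment of limma's p over all genes.

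Cps1, the entry enzyme, ran from 580.0 to 2117 RPM (median 1030) in night-fed, 310.7 to 1153 RPM (median 688.3) in arrhythmically fed and 299.1 to 849.3 RPM (median 615.5) in ad libitum fed liver. The libraries overlapped, though the time-point means were lower at 6 of 6 times with each alternative schedule. The difference from night feeding was -0.63 ± 0.14 under arrhythmic (adjusted p = 2.5e-04) and -0.87 ± 0.14 under ad libitum feeding (adjusted p = 1.2e-06). The night-fed WT arm had the highest mean Cps1 of the 16 arms (1125 RPM), against 771.2 RPM in night-fed Albumin-Cre and 740.5 RPM in night-fed vehicle liver.

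Otc, which makes citrulline, showed a small and regular rise. Its libraries ran from 244.0 to 366.3 RPM (median 284.8) in night-fed, 298.9 to 405.8 RPM (median 362.4) in arrhythmically fed and 302.5 to 380.0 RPM (median 338.2) in ad libitum fed liver. The ranges overlapped and the means were higher at 6 of 6 times. The differences were 0.33 ± 0.05 (adjusted p = 9.3e-08) and 0.23 ± 0.05 (adjusted p = 4.6e-05). Mean Otc was 288.5 RPM in this night-fed arm, against 314.6 RPM in night-fed vehicle and 334.1 RPM in night-fed Albumin-Cre liver. It was 337.5 RPM under ad libitum and 363.2 RPM under arrhythmic feeding, and those schedules were not tested against the other night-fed arms.

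Ass1, which condenses citrulline with aspartate, rose by 0.70 ± 0.13 under arrhythmic and 0.54 ± 0.13 under ad libitum feeding (limma adjusted p = 3.7e-05 and 8.0e-04). Mean Ass1 was 380.4 RPM in this night-fed arm, against 497.9 RPM in night-fed vehicle and 448.6 RPM in night-fed Albumin-Cre liver. It was 498.9 RPM under ad libitum and 575.1 RPM under arrhythmic feeding. Arg1, the final enzyme, had a median of 835.1 RPM (573.4 to 1162) in night-fed and 1163 RPM (868.0 to 1838) in arrhythmically fed liver. It rose by 0.54 ± 0.08 and 0.33 ± 0.08 (limma adjusted p = 9.1e-07 and 8.4e-04), in overlapping libraries. Mean Arg1 was 870.4 RPM in this night-fed arm, 970.0 RPM in night-fed vehicle and 918.4 RPM in night-fed Albumin-Cre liver. Under ad libitum feeding it was 1073 RPM and under arrhythmic feeding 1265 RPM. Slc25a15 and Gls2 were higher under arrhythmic feeding than under either other schedule: by 0.16 ± 0.06 and 0.32 ± 0.10 against night feeding (limma adjusted p = 0.027 and 0.0071) and by 0.22 ± 0.06 and 0.37 ± 0.10 against ad libitum feeding (limma adjusted p = 0.013 for each). The Slc25a15 means were above those of night feeding at 3 of 6 times. The Slc25a15 calls were lost in the joint fit of all arms (adjusted p up to 0.16 over the alternatives), as were those against ad libitum feeding without replicate 1 or replicate 2. Those 2 genes were the members called between arrhythmic and ad libitum feeding, where 8.88% of all genes were called. Asl, Nags and Glul did not pass the limma daily mean test in the 3 comparisons. For Asl this depended on the setting: edgeR called it lower under ad libitum than night feeding (-0.27, edgeR adjusted p = 0.0498), and without replicate 3 limma called it higher under arrhythmic than night feeding (0.33, limma adjusted p = 0.0078).

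**Figure D2:**
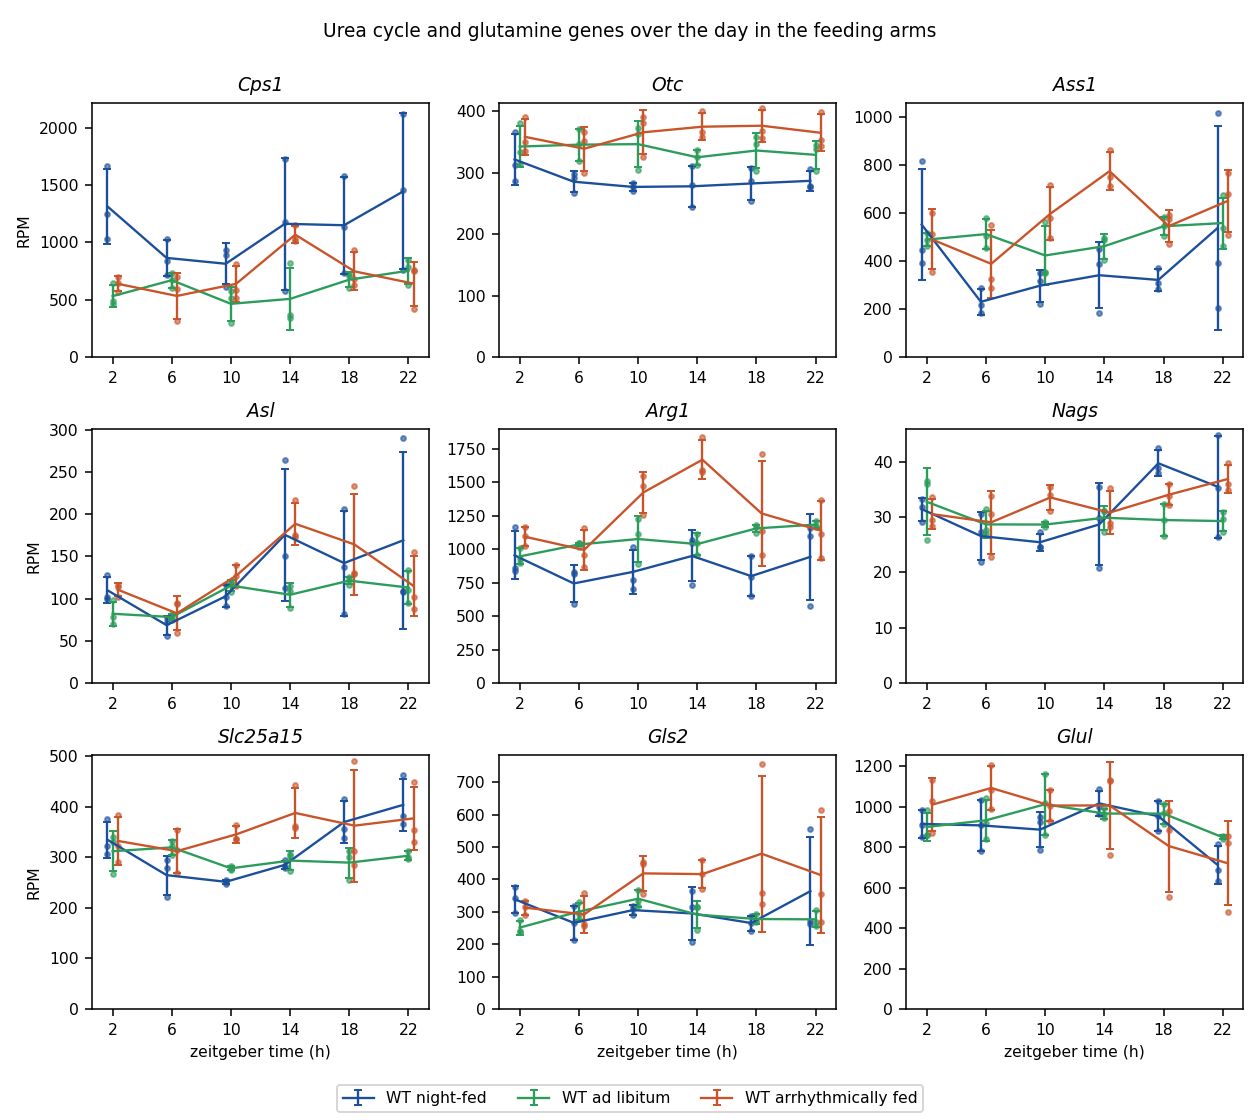
Levels (RPM) of the 9 genes against zeitgeber time in uninjected WT liver under 3 feeding schedules; small points are libraries, lines join means of 3 libraries, and bars are SD. Cps1 means lay lower under arrhythmic and ad libitum than under night feeding at all 6 times, and Otc means lay higher.

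Rhythm differed between feeding schedules in 1 member. Slc25a15 had an amplitude of 0.12 under arrhythmic and 0.35 under night feeding (adjusted p of the rhythm difference 0.046 by limma), where 4.56% of all genes were called, but edgeR gave an adjusted p of 0.061 and leaving out any replicate number lost the call (adjusted p up to 0.65). Ad libitum against night feeding had 0 members called by limma (2 at an unadjusted p under 0.05, 0 by edgeR; 0.886% of all genes), and arrhythmic against ad libitum feeding had 0 (1 unadjusted, 0 by edgeR; 0.0322%). Without replicate 2 of every group, 5 daily mean calls were made where 12 were made with all libraries. The Ass1 calls of both schedules, the Gls2 call under arrhythmic and the Arg1 call under ad libitum feeding were among those lost.

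Loss of Bmal1, the clock activator, was examined in uninjected and in vehicle-injected liver. Uninjected BMKO liver differed from uninjected WT in 7 of 9 genes, with Ass1, Nags and Slc25a15 higher and Cps1, Otc, Arg1 and Glul lower. With vehicle, 3 of 9 differed: Asl and Arg1 lower and Slc25a15 higher. That count depended on the scaling: with the values as deposited 7 of 9 were called without injection and 6 of 9 with vehicle, where Asl was lower and Cps1 (0.43), Otc (0.26), Nags (0.42), Slc25a15 (0.81) and Gls2 (0.40) were higher, with 56.8% of all genes called and their median at 0.313. Of all genes 72.9% were called without injection and 22.1% with vehicle, and the median of all genes without injection was -0.146 on the log2 scale.

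Ass1 ran from 184.2 to 1016 RPM (median 335.2) in uninjected WT and from 848.8 to 1547 RPM (median 1234) in uninjected BMKO liver. A single WT library reached into the BMKO range. The difference was 1.81 ± 0.16 (3.50-fold, limma adjusted p = 1.2e-16). Between the vehicle arms the medians were 513.9 RPM in WT and 441.0 RPM in BMKO, and the difference was -0.01 ± 0.16 (adjusted p = 0.98).

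Otc ran from 244.0 to 366.3 RPM in uninjected WT and from 94.4 to 216.8 RPM (median 123.2) in uninjected BMKO liver, and the ranges did not overlap. The difference was -1.14 ± 0.09 (limma adjusted p = 3.4e-18). With vehicle Otc was 233.8 to 354.9 RPM in WT and 235.1 to 361.0 RPM in BMKO, which overlapped fully, with a difference of -0.10 ± 0.09 (adjusted p = 0.50). Nags, which makes the Cps1 activator, rose by 0.96 ± 0.11 without injection (limma adjusted p = 2.1e-12), from a median of 30.2 to 58.7 RPM. With vehicle its difference was 0.06 ± 0.11 (adjusted p = 0.76).

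Slc25a15 and Arg1 were the members called in the same direction in both settings. Slc25a15 was higher in BMKO by 0.57 ± 0.08 without injection and by 0.45 ± 0.08 with vehicle (limma adjusted p = 6.4e-09 and 1.2e-05), with higher means at 6 of 6 times in each. Arg1 was lower by 0.90 ± 0.13 and 0.40 ± 0.13 on the log2 scale (limma adjusted p = 4.1e-09 and 0.018), but the vehicle call was lost with the deposited scaling (-0.04, adjusted p = 0.80) and without replicate 1 (-0.12, adjusted p = 0.47). Asl with vehicle ran from 78.6 to 243.6 RPM (median 124.0) in WT and from 44.5 to 91.3 RPM (median 68.1) in BMKO liver, overlapping between 78.6 and 91.3 RPM, with a difference of -0.88 ± 0.14 (limma adjusted p = 5.3e-07). Without injection the Asl difference was 0.16 ± 0.14 (adjusted p = 0.32).

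The difference between these genotype effects was tested itself. It was called for 6 members, Cps1 (0.75 ± 0.22), Otc (1.04 ± 0.13), Ass1 (-1.81 ± 0.23), Asl (-1.04 ± 0.20), Arg1 (0.51 ± 0.18) and Nags (-0.90 ± 0.15), each as the vehicle effect minus the uninjected one, with limma adjusted p from 3.0e-10 to 0.015 and 58.3% of all genes called. Vehicle against no injection was called for 6 members in BMKO liver (Otc by 1.17 ± 0.09, Arg1 by 0.67 ± 0.13 and Gls2 by 0.47 ± 0.12 higher; Ass1 by -1.29 ± 0.16, Asl by -0.95 ± 0.14 and Nags by -0.69 ± 0.11), where 61.7% of all genes were called. In WT liver it was called for 2, Cps1 (-0.56 ± 0.15) and Ass1 (0.52 ± 0.16), where 27.2% were called. The uninjected arms are shared among these comparisons. The Arg1 difference between genotype effects was lost without replicate 2 or replicate 3 (adjusted p up to 0.23), and in WT the Cps1 call was lost without replicate 1 and the Ass1 call without replicate 2 (adjusted p = 0.14 and 0.43).

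Markers of other cells and zones were also read in uninjected BMKO liver, and only those called lower are counted here. Against uninjected WT, 7 of 10 periportal, 7 of 11 Kupffer cell, 5 of 8 sinusoidal endothelial and 4 of 7 tested stellate cell and fibroblast markers were lower. Among all 12417 tested genes 5243 were called lower and 3807 higher in this comparison, so several of these counts were not far from the background. The summed stellate and fibroblast markers ran from 104.1 to 265.2 RPM in uninjected BMKO, 273.9 to 387.4 RPM in uninjected WT and 199.0 to 380.9 RPM in vehicle BMKO liver. Summed periportal markers ran from 918.7 to 2640 RPM in uninjected BMKO and from 1789 to 3509 RPM in uninjected WT liver. Their part in the differences of the urea cycle genes was not tested. With the deposited scaling the vehicle difference of Otc turned to 0.26 (adjusted p = 0.016), where the median of all genes stood at 0.313.

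No rhythm difference of a member was called between genotypes or with vehicle, which does not show that the rhythms were alike. The limma counts were 0 of 9 for BMKO against WT without injection (0 at an unadjusted p under 0.05, 3.02% of all genes called), 0 with vehicle (1 unadjusted, 1.84%), and 0 for vehicle against none in each genotype (0 unadjusted, 0% of all genes), and edgeR called 0 in each.

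Rapamycin, an inhibitor of mTOR complex 1, lowered Otc, Gls2 and Ass1 in both genotypes. In all, 5 of 9 genes were called in WT, all lower (18.9% of all genes called), and 4 of 9 in BMKO liver (12.1%), where Arg1 alone was higher. Cps1, Asl, Nags and Slc25a15 passed in neither genotype, with differences between -0.29 and 0.11.

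Otc ran from 233.8 to 354.9 RPM (median 317.2) with vehicle and from 70.2 to 260.7 RPM (median 184.7) with rapamycin in WT, and from 235.1 to 361.0 RPM (median 295.1) with vehicle and 119.8 to 266.4 RPM (median 196.5) with rapamycin in BMKO liver. A single rapamycin library of each genotype reached the vehicle range. The differences were -0.88 ± 0.09 and -0.66 ± 0.09 (limma adjusted p = 6.7e-11 and 3.9e-07), lower at 6 of 6 times in both genotypes.

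Gls2, the liver glutaminase, ran from 276.2 to 514.4 RPM with vehicle and 127.3 to 281.0 RPM with rapamycin in WT. In BMKO liver it ran from 279.6 to 506.9 RPM with vehicle and from 122.2 to 422.6 RPM with rapamycin. The WT ranges met only at their ends, and a single BMKO rapamycin library crossed into the vehicle range. The differences were -0.79 ± 0.12 and -0.93 ± 0.12 (limma adjusted p = 1.4e-06 and 3.5e-08). Ass1 fell by 0.54 ± 0.16 in WT and by 0.50 ± 0.16 in BMKO (adjusted p by limma 0.013 and 0.031). The WT call was lost without replicate 2 or replicate 3 (adjusted p up to 0.28) and the BMKO call without any 1 replicate number (adjusted p up to 0.25).

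Arg1 went in opposite directions. It ran from 689.3 to 1336 RPM (median 964.8) with vehicle and 334.7 to 1268 RPM (median 869.9) with rapamycin in WT, and from 355.4 to 1128 RPM (median 801.0) with vehicle and 621.5 to 1501 RPM (median 1048) with rapamycin in BMKO liver. All 4 ranges overlapped. The difference was -0.35 ± 0.13 in WT (limma adjusted p = 0.0497) and 0.54 ± 0.13 in BMKO (limma adjusted p = 0.0028), and the difference between them was 0.88 ± 0.18 (limma adjusted p = 0.0011), with 14.3% of all genes called in that test. Without the libraries under 3 M reads, of which the WT rapamycin ZT 22 replicate 1 library (0.706 M reads) is in that arm, the WT value was -0.31 (adjusted p = 0.088), while edgeR gave -0.30 (adjusted p = 0.098). Without replicate 1 of every group the WT value was -0.07 (adjusted p = 0.74), the BMKO value 0.26 (adjusted p = 0.26) and the test of the difference 0.33 (adjusted p = 0.40).

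**Figure D3:**
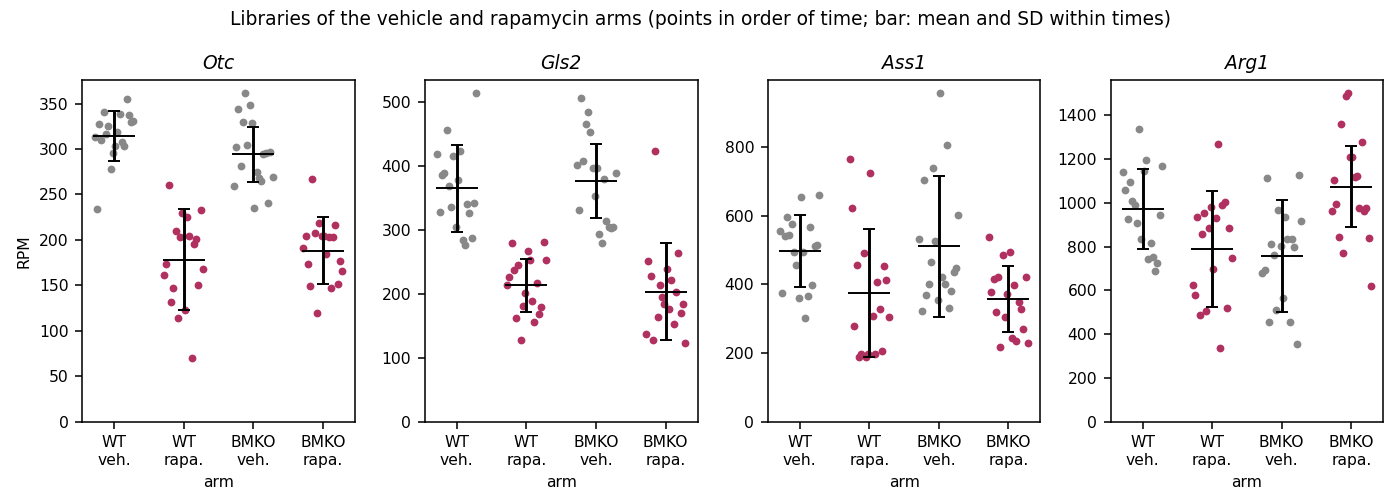
Levels (RPM) of Otc, Gls2, Ass1 and Arg1 in every library of the vehicle (grey) and rapamycin (red) arms of WT and BMKO liver; points are set out in order of time, and bars show the mean and the SD within times. Otc and Gls2 lay lower with rapamycin in both genotypes, and Arg1 had a median of 1048 RPM with rapamycin against 801.0 RPM with vehicle in BMKO liver.

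Glul fell by 0.29 ± 0.09 with rapamycin in WT (limma adjusted p = 0.012; lost without replicate 2 or replicate 3, up to 0.095) and was -0.09 ± 0.09 in BMKO liver (adjusted p = 0.54). The test of that difference gave 0.20 ± 0.12 (adjusted p = 0.27). Markers of pericentral hepatocytes, the zone that holds Glul, were lower for 5 of 11 in WT and 6 of 11 in BMKO, among them Oat, which feeds ornithine into glutamate (-0.73 ± 0.13 and -0.86 ± 0.13). Summed pericentral markers ran from 2582 to 6045 RPM with vehicle and 2351 to 5172 RPM with rapamycin in WT, and from 3888 to 5372 RPM and 2028 to 4502 RPM in BMKO. Periportal markers were lower for 3 of 10 and 4 of 10. Among all 12417 tested genes 1164 were called lower in WT and 663 in BMKO liver. Their part in the fall of the members was not tested.

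Rhythm differences with rapamycin were called for 0 of 9 members in WT (0 at an unadjusted p under 0.05; 0% of all genes) and 0 of 9 in BMKO (1 unadjusted; 0.322%) by limma, and edgeR called 0 in each.

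Liver loss of Tsc1, a brake on mTOR complex 1, and of Raptor, a subunit of that complex, was examined in 2 arms set against the same Albumin-Cre arm. In TSKO liver Otc and Asl were higher and Arg1 was lower (3 of 9; 36.4% of all genes called). In RPKO liver Cps1 was higher and Arg1, Slc25a15 and Gls2 were lower (4 of 9; 42.6%). With the values as deposited 7 of 9 were called in RPKO, all lower (57.9% of all genes, their median at -0.233): Otc (-0.29), Ass1 (-0.31), Asl (-0.28) and Nags (-0.25) joined Arg1 (-0.48), Slc25a15 (-0.48) and Gls2 (-0.70), and Cps1 was not called. Arg1 was the member called lower in both.

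Otc ran from 253.8 to 403.4 RPM (median 334.0) in Albumin-Cre, from 394.2 to 538.6 RPM (median 435.3) in TSKO and from 259.6 to 403.8 RPM (median 310.7) in RPKO liver. TSKO libraries lay almost wholly above the others, and RPKO and Albumin-Cre overlapped. The TSKO difference was 0.40 ± 0.05 (limma adjusted p = 7.1e-08) and the RPKO difference was -0.06 ± 0.05 (adjusted p = 0.36). Asl rose by 0.49 ± 0.08 in TSKO (limma adjusted p = 2.1e-06), from a median of 116.8 to 163.5 RPM, higher at 6 of 6 times.

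Arg1 ran from 814.3 to 1115 RPM (median 917.4) in Albumin-Cre, from 472.5 to 803.8 RPM (median 686.5) in TSKO and from 552.9 to 964.0 RPM (median 768.8) in RPKO liver. TSKO did not overlap the control and RPKO did. The differences were -0.44 ± 0.06 and -0.25 ± 0.06 (limma adjusted p = 1.9e-07 and 9.6e-04). Gls2 fell by 0.47 ± 0.09 in RPKO (limma adjusted p = 1.6e-05), from a median of 313.1 to 224.7 RPM, and was 0.06 ± 0.09 in TSKO (adjusted p = 0.60).

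Cps1 rose by 0.37 ± 0.12 and Slc25a15 fell by 0.25 ± 0.06 in RPKO (limma adjusted p = 0.012 and 0.0012). The Cps1 call was lost with the deposited scaling (0.14, adjusted p = 0.34) and without replicate 3 (0.23, adjusted p = 0.26), and 1 Albumin-Cre library had 180.8 RPM of Cps1 where the median was 805.0 RPM. Set directly against RPKO, TSKO liver had 6 of 9 members called (57.9% of all genes): Otc 0.46 ± 0.05, Ass1 0.30 ± 0.12, Asl 0.54 ± 0.08, Slc25a15 0.20 ± 0.06 and Gls2 0.53 ± 0.09 higher, and Arg1 -0.19 ± 0.06, with limma adjusted p from 6.0e-10 to 0.034. The Arg1 call in RPKO was lost without replicate 1 (adjusted p = 0.068) and the Slc25a15 call without replicate 2 or replicate 3 (adjusted p up to 0.13). Against RPKO, the Ass1, Arg1 and Slc25a15 calls were lost without replicate 2 or replicate 3. That Arg1 value turned to 0.05 (adjusted p = 0.44) with the deposited scaling, which moved the median of all genes in this comparison to 0.246.

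Zone markers are counted here for a different zone in each liver knockout, and the summed levels of each zone overlapped among the arms. In TSKO 6 of 10 periportal markers were higher and 1 lower, and in RPKO 5 of 11 pericentral markers were higher and 0 lower. Among all 12271 tested genes 2126 were called higher and 2336 lower in TSKO, and 2268 higher and 2962 lower in RPKO. Summed periportal markers ran from 2552 to 4726 RPM in TSKO, 1568 to 3866 RPM in Albumin-Cre and 1282 to 3722 RPM in RPKO, and summed pericentral markers from 1943 to 6049 RPM, 1979 to 6003 RPM and 3906 to 8200 RPM. Their part in the members' differences was not tested. Rhythm differences were called for 0 of 9 members in TSKO against Albumin-Cre (0.00815% of all genes), RPKO against Albumin-Cre (0%) and TSKO against RPKO (0.0652%) by limma, with 0 of 27 at an unadjusted p under 0.05 and 0 by edgeR.

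Otc and Arg1 were lower and Slc25a15 was higher with AZD8055 injection at either time than without injection. Daily profiles of several members differed between dawn and dusk injection. Against the same uninjected arrhythmically fed arm, 4 of 9 genes were called with the dawn injection (41.4% of all genes) and 4 with the dusk injection (51.4%). Gls2 was called lower with dawn and Nags higher with dusk injection.

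Otc ran from 298.9 to 405.8 RPM in uninjected liver, 146.0 to 312.8 RPM (median 207.1) with dawn and 109.2 to 286.9 RPM (median 214.8) with dusk AZD8055. The dusk arm lay wholly below the uninjected one and the dawn arm nearly so. The differences were -0.80 ± 0.08 and -0.81 ± 0.08 (limma adjusted p = 1.4e-10 and 6.2e-11). Arg1 fell by 0.26 ± 0.09 with dawn and 0.52 ± 0.09 with dusk injection (limma adjusted p = 0.021 and 7.0e-06). Slc25a15 rose by 0.36 ± 0.08 and 0.34 ± 0.08 (limma adjusted p = 2.8e-04 and 3.5e-04), Gls2 fell by 0.31 ± 0.11 with dawn (limma adjusted p = 0.025) and Nags rose by 0.30 ± 0.08 with dusk injection (limma adjusted p = 0.0016). With dawn injection the Arg1 and Gls2 calls were lost under the deposited scaling and without replicate 3, and also without replicate 2 for Arg1 and replicate 1 for Gls2 (adjusted p up to 0.19 and 0.17). The Nags call was lost without replicate 1 (adjusted p = 0.092).

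The daily mean did not separate dawn from dusk injection for any member (0 of 9 by limma, 1 at an unadjusted p under 0.05, 0 by edgeR; 4.61% of all genes). The rhythm did, for 6 of 9 members: Otc, Ass1, Asl, Arg1, Slc25a15 and Gls2, where 41.9% of all genes were called. For Slc25a15 the dawn arm read 589.3, 845.6 and 634.8 RPM at ZT 6 and 443.7, 333.0 and 392.7 RPM at ZT 14, and the dusk arm read 366.5, 295.9 and 396.5 RPM at ZT 6 and 789.4, 449.7 and 633.3 RPM at ZT 14. The order of the arms turned over between these times without overlap. The peak was at ZT 5.68 with dawn and ZT 17.8 with dusk injection (limma adjusted p of the rhythm difference 1.9e-05).

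Otc also turned over, at other hours. With dawn injection it read 281.3, 297.9 and 236.2 RPM at ZT 2 and 161.8, 173.6 and 146.0 RPM at ZT 10, and with dusk injection 139.2, 198.4 and 202.9 RPM at ZT 2 and 240.7, 253.3 and 276.2 RPM at ZT 10. The peaks lay at ZT 23.9 and ZT 11.7 (limma adjusted p = 2.7e-05). Asl had an amplitude of 0.26 with dawn and 0.72 with dusk injection (limma adjusted p = 6.9e-04), Arg1 peaked at ZT 5.03 and ZT 13.3 (limma adjusted p = 0.0050), Gls2 at ZT 0.486 and ZT 13.2 (limma adjusted p = 0.0048) and Ass1 at ZT 0.796 and ZT 17.2 (limma adjusted p = 0.044, lost on leaving out any replicate number). The Asl and Gls2 calls were lost without replicate 1 (adjusted p = 0.070 and 0.055) and the Arg1 call without replicate 3 (adjusted p = 0.21). Peaks of arms without a called rhythm are loosely set.

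**Figure D4:**
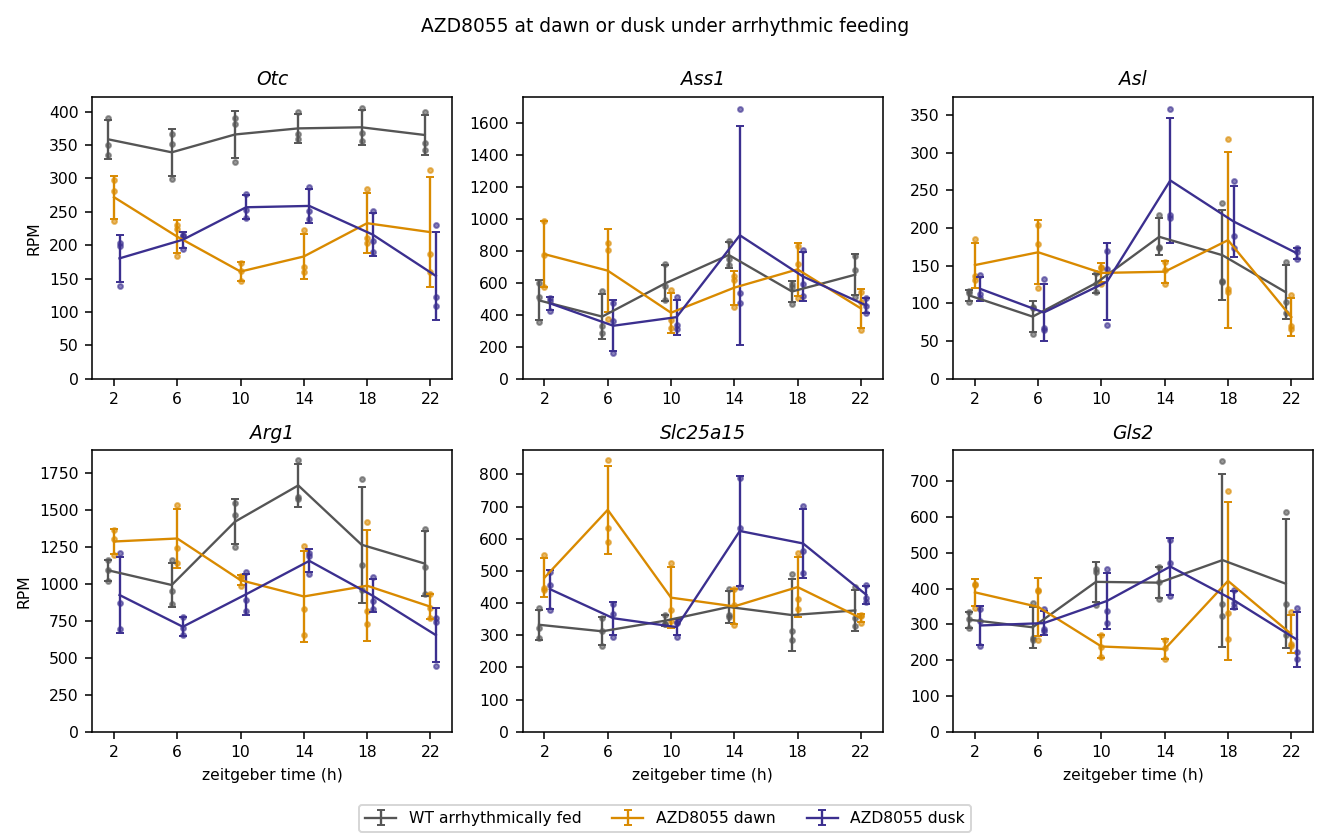
Levels (RPM) of 6 genes against zeitgeber time under arrhythmic feeding without injection (grey) and with AZD8055 at dawn (orange) or dusk (blue); small points are libraries, lines join means of 3 libraries, and bars are SD. Otc lay below the uninjected arm at 6 of 6 times with both injections, and Slc25a15 was high at ZT 6 after dawn and at ZT 14 after dusk injection.

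Against the uninjected arm the dawn injection changed the rhythm of Arg1 and Slc25a15 (2 of 9; limma adjusted p = 0.0060 and 0.024; 15.1% of all genes; each lost without replicate 3, and Slc25a15 also without replicate 1), and the dusk injection that of 0 of 9 members (1 at an unadjusted p under 0.05, 0 by edgeR; 5.76%). Neutrophil markers were higher for 2 of 2 tested with each injection, and their summed level reached 113.1 RPM with dawn and 130.3 RPM with dusk injection against at most 3.98 RPM without. Erythroid markers were lower for 4 of 4 with dawn and 2 of 4 with dusk injection, and their sums ran from 416.6 to 1384 RPM, 524.7 to 2534 RPM and, uninjected, 705.9 to 3671 RPM. Among all 12417 tested genes 2803 were called higher and 2333 lower with dawn, and 3520 higher and 2857 lower with dusk injection. Their part in the members' differences was not tested.

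With tunicamycin, an inhibitor of N-linked glycosylation that stresses the endoplasmic reticulum, the daily means of the 9 genes did not separate the feeding schedules. Arrhythmic against night feeding was called for 0 of 9 (0 at an unadjusted p under 0.05, 0 by edgeR), where 0.579% of all genes were called. For example Otc ran from 117.1 to 237.9 RPM (median 191.2) under night and 154.3 to 239.2 RPM (median 186.5) under arrhythmic feeding, a difference of 0.04 ± 0.07 (adjusted p = 0.87). Cps1 differed by -0.08 ± 0.10 (adjusted p = 0.79).

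Cps1 and Otc were lower with dusk AZD8055 on top of tunicamycin (2 of 9, where 8.85% of all genes were called). Otc ran from 118.8 to 205.7 RPM (median 142.9), overlapping the lower range of the arm without AZD8055, a difference of -0.33 ± 0.07 (limma adjusted p = 8.1e-04), lower at 4 of 4 times. Cps1 fell by 0.34 ± 0.10 (limma adjusted p = 0.018), lower at 3 of 4 times, and that call was lost without replicate 1 (adjusted p = 0.093) or replicate 3 (adjusted p = 0.21). Neutrophil markers were again higher for 2 of 2, with sums of 1.4 to 23.6 RPM against 0.4 to 5.8 RPM, and their part was not tested. Among all 12263 tested genes 547 were called higher and 538 lower.

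Asl had a called rhythm in all 3 tunicamycin arms. Under arrhythmic feeding its 4 libraries read 110.8, 96.0, 91.2 and 104.5 RPM at ZT 4 and 220.6, 212.9, 327.8 and 213.8 RPM at ZT 16, with a wide gap. The amplitude was 0.63 ± 0.07 (limma adjusted p = 3.6e-05). Rhythm differences were called for 0 of 9 members between feeding schedules (2 at an unadjusted p under 0.05; 4.43% of all genes) and 0 of 9 with AZD8055 (1 unadjusted; 0.0326%) by limma, and edgeR called 0 in each. In night-fed WT liver the mean Otc level was 181.7 RPM with and 288.5 RPM without tunicamycin, in tables scaled separately and at other times, so these were not tested.

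**Figure D5:**
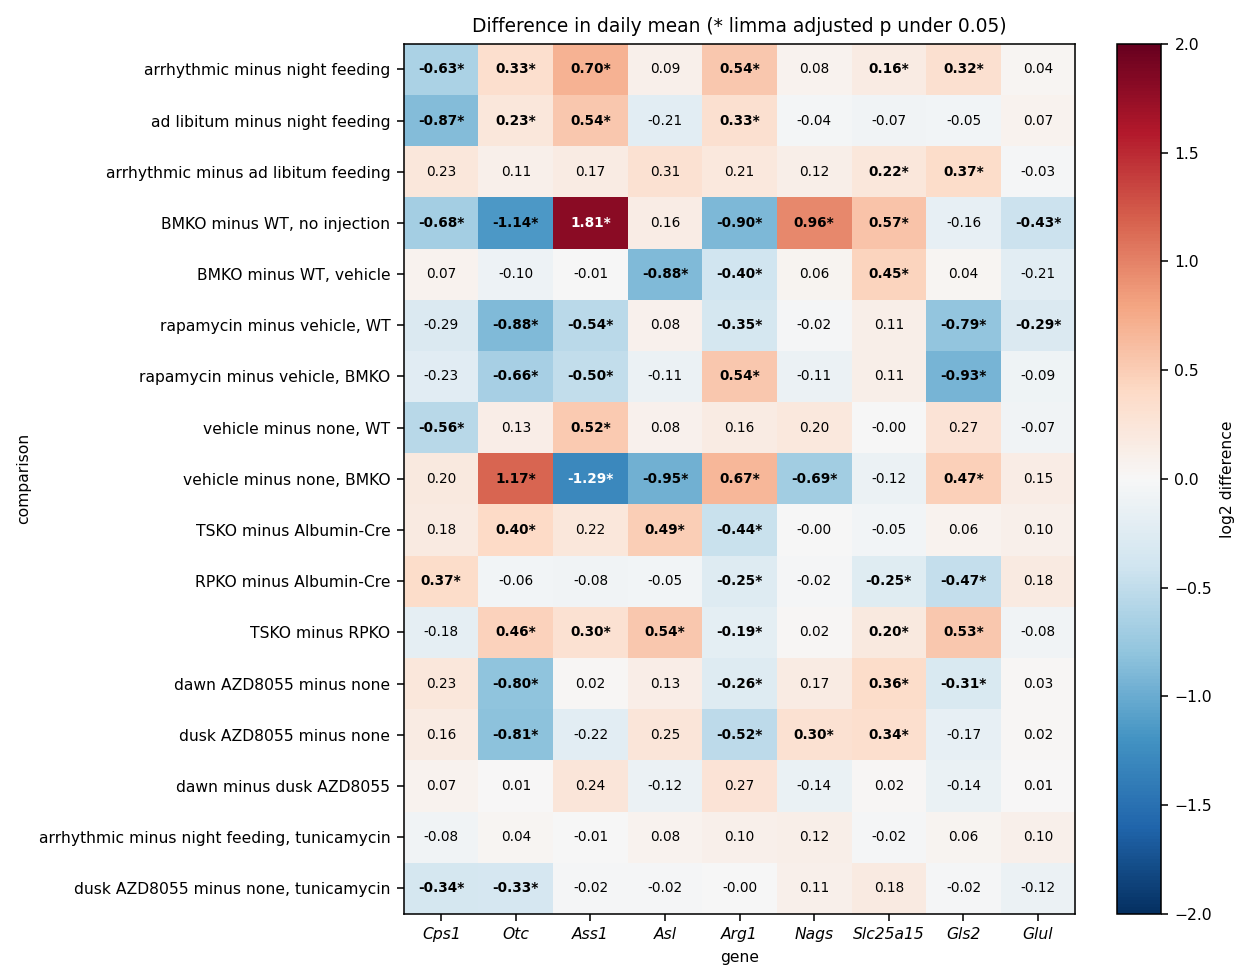
Log2 differences of daily means for the 9 genes (columns) in 17 comparisons (rows), first-named arm minus second; red is higher, blue lower, and an asterisk marks a limma adjusted p under 0.05. Otc was lower with rapamycin in both genotypes and with AZD8055 at dawn and dusk, and Cps1 was lower in 4 comparisons of the first table that all use the uninjected night-fed WT arm.

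Other genes of nitrogen metabolism were read from a list of 50, of which 43 were tested in the first table. With arrhythmic feeding 5 were higher and 13 lower (41.9% of the list, 44.1% of all genes), among them Gpt (-0.59 ± 0.06) and Glud1 (-0.41 ± 0.04), a transaminase and the dehydrogenase that frees ammonia from glutamate. The list's median was -0.06 against 0.01 for all genes, while that of the 9 members was 0.16. Ad libitum feeding gave 5 higher and 20 lower (58.1% of the list, 52.6% of all genes), again with Gpt (-0.71 ± 0.06) and Glud1 (-0.49 ± 0.04) lower, while Ftcd, which handles histidine carbon, was higher with both schedules (0.72 ± 0.09 and 0.84 ± 0.09).

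In uninjected BMKO liver 21 of the 43 were higher and 13 lower (79.1% of the list, 72.9% of all genes), and with vehicle 12 and 7 (44.2% and 22.1%). Agxt, a peroxisomal transaminase for glyoxylate, was higher in both (1.70 ± 0.12 and 1.5 ± 0.12), as was the mitochondrial carbonic anhydrase Car5b (1.71 ± 0.16 and 1.69 ± 0.16). Rapamycin lowered 10 and raised 3 of the 43 in WT and lowered 15 and raised 0 in BMKO liver, with Agxt lower in both (-0.71 ± 0.12 and -1.14 ± 0.12). These were 30.2% and 34.9% of the list, where 18.9% and 12.1% of all genes were called. In TSKO liver 13 were higher and 13 lower (60.5% of the list, 36.4% of all genes): asparagine synthetase, Asns, was higher by 3.15 ± 0.31, and Car5a, the carbonic anhydrase that supplies bicarbonate to Cps1, fell by 1.25 ± 0.13. In RPKO 7 were higher and 10 lower (39.5% of the list, 42.6% of all genes), with Car5a higher by 0.68 ± 0.13, a gene named here after its values were seen.

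With dawn AZD8055 10 were higher and 8 lower, among them Car5a (-0.69 ± 0.09), and with dusk AZD8055 14 were higher and 7 lower. These were 41.9% and 48.8% of the list, where 41.4% and 51.4% of all genes were called. Rhythm differed between dawn and dusk injection for 33 of the 43 (76.7% of the list, 41.9% of all genes). With tunicamycin and AZD8055 2 of 44 tested were higher and 5 lower (15.9% of the list, 8.85% of all genes). Among the named regulators, Ppargc1a, a coactivator of fasting genes, was lower with rapamycin in WT (-0.87 ± 0.15). Ppara was lower in vehicle BMKO liver (-1.03) and with AZD8055 at dawn (-0.77). Of all genes 18.9%, 22.1% and 41.4% were called in these comparisons. Other regulators, and these genes in other comparisons, are not given here.

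Likeness of daily course was read over 78 arm and time means of the first table, with each arm's mean removed, as a description of libraries that share scaling and depth. The gene most like Asl was Ahcy, of the methionine cycle (Pearson r = 0.84), and that most like Cps1 was the tyrosine transaminase Tat (r = 0.81). Otc was most like Ugt2b36 (r = 0.76), Slc25a15 like Crem (r = 0.76), Nags like Atp6ap1 (r = 0.72), Gls2 like Hgd (r = 0.69), Ass1 like B2m (r = 0.68), Arg1 like the transaminase Got1 (r = 0.62) and Glul like the pericentral Cyp2e1 (r = 0.59). Among the members themselves the highest value was 0.56, for Cps1 and Asl, and the lowest was -0.27, for Ass1 and Glul. For enzymes of adjacent steps, Otc and Ass1 had r = 0.40 and Ass1 and Asl had r = 0.48.

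Across the 16 arms the mean levels spanned unequal ranges for each gene, tunicamycin arms being on their own scale. Otc ran from 132.7 RPM in uninjected BMKO to 439.0 RPM in TSKO liver, and Ass1 from 356.4 RPM in rapamycin BMKO to 1205 RPM in uninjected BMKO liver. Arg1 ran from 472.9 RPM in uninjected BMKO to 1265 RPM under arrhythmic feeding, Asl from 64.4 RPM in rapamycin BMKO to 162.4 RPM with dusk AZD8055, and Nags from 28.3 RPM in RPKO to 62.5 RPM in uninjected BMKO liver. Slc25a15 ran from 215.4 RPM in RPKO to 480.4 RPM in uninjected BMKO, Gls2 from 203.1 RPM in rapamycin BMKO to 388.8 RPM under arrhythmic feeding, and Cps1 from 595.6 RPM in rapamycin WT to 1125 RPM in night-fed WT. Glul ran from 550.0 RPM with tunicamycin under night feeding to 1025 RPM in RPKO liver, and its SD within times ran from 51.8 to 218.7 RPM, wider than the step between most neighbouring arms.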

How the data were processed

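Mouse liver RNA was measured in 282 QuantSeq 3' libraries. The deposited values are a signal. From the values, the authors' tables hold reads divided by 1 factor for each library, and undoing that factor gave whole reads (within 0.01 read) for 99.91% and 100% of values in the tables. Per the submitters' processing notes, STAR 2.7.3a and SAMtools were used with genome mm10 (GRCm38.p6). Counting program, annotation and scaling were not found in the labels. In the RPKO arm 197 genes, none a member, had values off the library's step and were dropped from fits with that arm.

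Libraries were grouped by arm, time and replicate as labelled; the design text calls the replicates biological. Recovered reads were rescaled by TMM (edgeR 4.0.16), and limma 3.58.1 in R 4.3.3, with a mean-variance trend, was fitted to log2(RPM + 0.5), which understates fold changes of genes with few reads. A filter on the mean, at least 1 RPM, left 12417 genes to test (12263 for tunicamycin, 12271 with RPKO). Fits had a mean per arm and time and Benjamini-Hochberg adjustment at 0.05. Arms were fitted together as feeding, Bmal1 and injection, liver knockout, AZD8055 and tunicamycin sets, and rhythms within each arm alone. The method was tested on simulated data. Promoter windows were read with Python 3.11.15.

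The rule for named genes took the 9 members in every arm, up to 4 called genes of smallest adjusted p in a comparison from the related nitrogen list, called zonation and regulator genes, and the genes most alike in daily course, passing over unnamed gene models; the text gives a selection. Members and lists were chosen with earlier results of these data known. Alternatives were DESeq2 1.42.0 size factors, the deposited scaling, no filter, pseudocounts of 0.1 and 2, edgeR on recovered reads, a joint fit, the replicate number as a block, and leaving out replicates, libraries under 3 M reads or 2 ad libitum libraries.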

Additional observations from a re-analysis of the deposited data

Results flagged for a closer look

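In the tunicamycin arms, 12 groups of 4 libraries were each read for the 9 genes, and Dixon's test found a library far from the other 3 in 12 of these 108 combinations of gene and group, where chance gives about 1 in 20. The genes of a library are not independent: the 12 values lay in 9 libraries, and 1 of them, night-fed ZT 16 replicate 2, held 3. Under night feeding at ZT 16, replicate 2 stood out for Cps1 (1617 RPM, the others 727.5 to 812.8), Otc (219.9, the others 153.1 to 159.6) and Slc25a15 (630.6, the others 220.4 to 265.4). At ZT 22 replicate 2 of that arm stood out for Cps1 (1250 RPM, the others 938.7 to 988.1) and Asl (121.4, the others 156.7 to 161.8), and at ZT 4 replicate 3 for Otc (155.9, the others 196.7 to 203.5). Under arrhythmic feeding the libraries were ZT 16 replicate 3 for Asl (327.8 RPM, the others 212.9 to 220.6), ZT 4 replicate 4 for Nags (49.2, the others 33.5 to 35.1), ZT 22 replicate 1 for Slc25a15 (231.6, the others 316.4 to 322.8) and ZT 10 replicate 1 for Gls2 (277.0, the others 250.2 to 250.8). With AZD8055 they were ZT 16 replicate 1 for Otc (163.4 RPM, the others 132.3 to 135.0) and ZT 22 replicate 4 for Gls2 (194.8, the others 241.3 to 250.8).

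Effects that differed between genotypes by an interaction test in limma were the rapamycin effect on Arg1 (BMKO minus WT, 0.88, adjusted p = 0.0011) and, for BMKO minus WT with vehicle against without injection, Cps1 (0.75, adjusted p = 0.0025), Otc (1.04, adjusted p = 5.1e-10), Ass1 (-1.81, adjusted p = 3.0e-10), Asl (-1.04, adjusted p = 8.2e-06), Arg1 (0.51, adjusted p = 0.015) and Nags (-0.90, adjusted p = 9.0e-07). The rapamycin test called 14.3% of all genes and the vehicle test 58.3%. As given above, the rapamycin call of Arg1 was lost without replicate 1, and its vehicle call without replicate 2 or replicate 3.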

How the results depend on the processing

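Of 69 daily mean calls 42 held under every alternative run for them. Over single genes, 56 alternative values lost and 25 gained a daily mean call. Over all member results, sign changes without a call numbered 128. With a call before or after the change, 2 daily mean values turned direction, both with the deposited scaling: Otc in BMKO against WT with vehicle (0.26, limma adjusted p = 0.016) and Arg1 in TSKO against RPKO (0.0549, limma adjusted p = 0.44). That scaling moved the median of all genes to 0.313 for BMKO against WT with vehicle, 0.314 for vehicle against none in BMKO, 0.434 for the test between these genotype effects, -0.233 for RPKO and 0.246 for TSKO against RPKO. Leaving out 1 replicate number at a time, the counts of calls ranged from 5 to 11 for feeding daily means (12 with all libraries), 28 to 33 for Bmal1 and injection (34), 8 to 13 for the liver knockouts (13), 6 to 7 for AZD8055 (8) and 1 to 2 for tunicamycin (2). For rhythm differences they were 0 for feeding (1), 4 to 10 for AZD8055 (8), 0 to 1 for tunicamycin (0), and for rhythms within arms 11 to 25 (25). The feeding rhythm difference was 0 with no filter, edgeR, the joint fit or without 2 ad libitum libraries, and 2 with the replicate block. The joint fit gave 1 Bmal1 rhythm difference where the separate fit gave 0, and the replicate block 1 with tunicamycin. Replicate numbers were not taken as pairing, since in no comparison did every same-numbered pair correlate above 0.1. That rule does not show that same-numbered samples are unrelated. Such pairs passed 0.1 in 11 of 18 cases for rapamycin against vehicle in BMKO liver (highest r = 0.50). They did so in 9 of 18 for dawn against dusk AZD8055 (highest r = 0.55) and in 2 of 18 for arrhythmic against night feeding. Within some arms a replicate number stood apart at all times. In vehicle BMKO liver replicate 1 read 355.4 to 680.0 RPM of Arg1, and the others at least 693.2 RPM. In RPKO liver replicate 3 read at least 1031 RPM of Cps1, and the others at most 996.2 RPM. The fits took libraries as independent, so standard errors and p-values may be too small there. A block shared by several arms does not remove such an offset. The block changed no daily mean call, but it gave 36 rhythms within arms (25 without it) and 11 AZD8055 rhythm differences (8 without it). Depth limits genes of few reads such as Nags, and 3 libraries had under 3 M reads.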
